A study of Homo sapiens with 9 samples.

Results

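The genes described here are 9 ATP-binding cassette (ABC) transporters that export drugs and drug conjugates from cells, ABCB1, ABCC1, ABCC2, ABCC3, ABCC4, ABCC5, ABCC6, ABCC10 and ABCG2. They were chosen by name, as known exporters of drugs, with earlier results of these data known, and all 9 were found among the 20030 genes of the expression tables. The RNA came from the human hepatocellular carcinoma (HCC) cell line MHCC97L and from a pair of drug-resistant lines raised from it. MHCC97L-Src was selected in rising doses of saracatinib, an inhibitor of Src family kinases, until stably resistant to 4 μmol/L, and MHCC97L-Oxa was stably resistant to 2 μmol/L oxaliplatin, a platinum drug that damages DNA. Untreated MHCC97L, called the parental line here, served as the control, and all lines were kept in the same serum-containing medium. The labels give saracatinib as the treatment of MHCC97L-Src and oxaliplatin as that of MHCC97L-Oxa. Whether the drugs were present when RNA was taken is not given in the sources used here. For each of the 3 lines, 3 libraries of poly(A) RNA were sequenced. The study describes its comparison of MHCC97L with MHCC97L-Src as independent experiments, and the labels do not say whether the libraries of a line came from separate cultures, so the p-values measure the spread between these libraries. Each line is a single parental or selected line, so the selection, the drug exposure and the history of that line cannot be told apart.

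ABC exporters bind ATP at their nucleotide-binding domains and use its hydrolysis to move substrates out of the cytoplasm. ABCB1 (P-glycoprotein), ABCC1 (MRP1) and ABCG2 (BCRP) are the classical multidrug transporters. The other ABCC proteins carry glutathione, glucuronide and sulfate conjugates, cyclic nucleotides or nucleotide analogues. In hepatocytes ABCC2, ABCB1 and ABCG2 lie in the canalicular membrane and secrete into bile, whereas ABCC3 and ABCC4 lie in the basolateral membrane and return conjugates and bile acids to the blood.

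The counted reads per library ranged from 16970486 to 18209213. Of 11 hepatocyte markers, 6 were at or under 3 counts in every library, among them ALB, AFP, APOB and TTR at 0, while the epithelial keratins KRT8 and KRT18 reached 631 to 1550 and 563 to 1300 FPKM (fragments normalised to transcript length and library size). The other 3 markers, APOA1, TF and SERPINA1, reached at most 31 counts. In the edgeR tests given below (adjusted p under 0.05), KRT8 and KRT18 were higher in MHCC97L-Src than in MHCC97L-Oxa. SERPINA1 was higher in MHCC97L-Oxa than in MHCC97L. In each of these comparisons 3 of the markers were tested, and 4.64% and 0.953% of all genes were called. Between MHCC97L-Src and MHCC97L, 0 of 2 tested were called, against 2.13%. MHCC97L replicate 1 stood apart from the other libraries. Across 12126 genes, the deviation of a library from the mean of the 9 libraries was related to the GC content of the genes, with a Spearman's rho of -0.78 in MHCC97L replicate 1, 0.30 in replicate 2 and -0.26 in replicate 3, and of 0.17 to 0.70 in the 6 resistant libraries. These values run across genes, which are not independent of each other, and they only describe the libraries. The values of the 8 detected transporter genes against MHCC97L are therefore also given without replicate 1 and after offsets for GC content and gene length.

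The 9 genes differed in base composition. From low to high, the GC content of the longest transcript was 41.2% for ABCG2, 43.1% for ABCB1, 43.2% for ABCC4, 44.9% for ABCC2, 50.8% for ABCC5, 54.9% for ABCC1, 55.8% for ABCC3, and 58.7% for both ABCC6 and ABCC10. To show this in a part of the protein that all 9 share, the coding bases around the first Walker A motif, the loop that holds the phosphates of ATP, are printed for 4 of them. Each stretch has 66 bases, is written 5′ to 3′ on the coding strand and comes from the transcript with the longest coding sequence in GENCODE release 29 (GRCh38), with G and C in capitals. The stretch of ABCC3 lies in exon 16 of 31 at chr17:50669162-50669227 (+ strand), and that of ABCC1 in exon 16 of 31 at chr16:16079374-16079439 (+ strand). The stretch of ABCC2 lies in exon 16 of 32 at chr10:99813040-99813105 (+ strand). In ABCG2 the stretch is joined from exons 3 and 4 of 16 within chr4:88131899-88132622 (- strand).
ABCC3: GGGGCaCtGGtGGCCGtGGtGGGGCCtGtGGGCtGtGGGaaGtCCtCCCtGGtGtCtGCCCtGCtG
ABCC1: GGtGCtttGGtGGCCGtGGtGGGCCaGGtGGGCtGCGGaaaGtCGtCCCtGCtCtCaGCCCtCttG
ABCC2: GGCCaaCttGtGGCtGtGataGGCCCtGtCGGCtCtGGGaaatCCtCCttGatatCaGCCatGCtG
ABCG2: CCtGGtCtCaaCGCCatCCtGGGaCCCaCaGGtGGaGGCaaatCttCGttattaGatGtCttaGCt

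In these stretches, 47 of 66 bases were G or C in ABCC3, 44 in ABCC1, 37 in ABCC2 and 34 in ABCG2. The difference was wider at the third codon position over the whole coding sequence, where 74.8% of the bases were G or C in ABCC3, 78.1% in ABCC1, 56.8% in ABCC2 and 45.5% in ABCG2. The coding sequence of ABCG2 has 655 codons and 1 match to the Walker A pattern, since a single ABCG2 chain is only part of a transporter that works as a dimer, whereas the other 8 genes have 1280 to 1545 codons and 2 matches each.

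ABCB1, which exports many hydrophobic drugs, had no read in any of the 9 libraries. The 0 counts among 159169898 allow up to 0.0188 CPM (counts scaled to a common library size) over all libraries, and the floor of 3 counts in a single library was 0.165 to 0.177 CPM. Such floors cover counting error only, as amplified reads that carry no molecular identifier need not come from separate molecules. The gene (chromosome 7, 87503633 to 87713323, - strand) was therefore not tested, and a difference between the lines was not detectable at this depth.

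In all 3 lines, ABCC3 and ABCC1 were the most abundant of the 9 genes per transcript length. Together they made up 61.1% to 90.0% of the summed FPKM of the 9 genes. That sum was 69.4 to 79.7 FPKM in the MHCC97L libraries, 41.2 to 45.2 in the MHCC97L-Src libraries and 70.2 to 76.7 in the MHCC97L-Oxa libraries, so MHCC97L-Src lay below both other lines without overlap. In MHCC97L the order of mean levels was ABCC3, ABCC1, ABCC2, ABCC5, ABCG2, ABCC10, ABCC4 and ABCC6, and all neighbours from ABCC1 onward had overlapping ranges. In MHCC97L-Oxa ABCC3 again came first and ABCC1 second, with their ranges apart. In MHCC97L-Src the order of these 2 genes was turned, with ABCC1 at 20.6 ± 0.906 FPKM above ABCC3 at 15.4 ± 0.511 FPKM (SD, n = 3), and their ranges were apart too. ABCC5 followed in both resistant lines, then ABCC10 and ABCC2 with overlapping ranges, and ABCG2 and ABCC4 came last of the detected genes. In RNA from whole cultures, fewer cells with a transcript and less of the transcript per cell cannot be told apart.

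**Figure D1:**
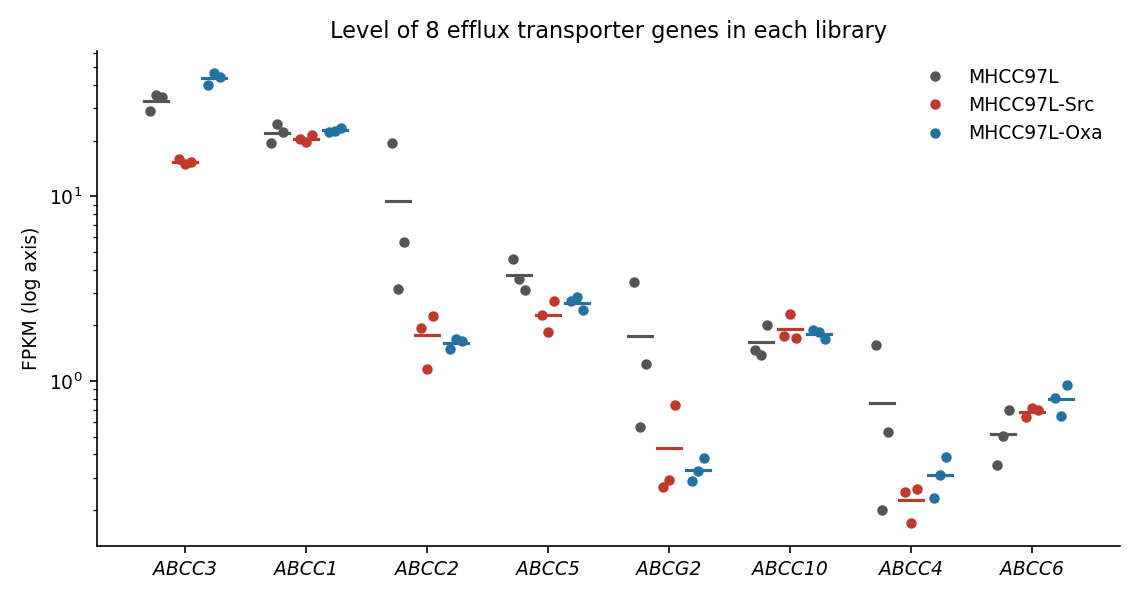
Level of the 8 detected efflux transporter genes in FPKM (log axis) in each library, with the 3 lines in separate colours, points for libraries and bars for the mean of 3 libraries. ABCC3 lay at 15.0 to 16.0 FPKM in MHCC97L-Src, below MHCC97L at 29.2 to 35.4 and MHCC97L-Oxa at 40.4 to 46.5, and 1 MHCC97L library stood far above the other 2 for ABCC2, ABCG2 and ABCC4.

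Counts of each pair of lines were tested with the quasi-likelihood method of edgeR, with Benjamini-Hochberg adjustment over all genes tested, and 8 of the 9 genes passed the filter on low counts. Between MHCC97L-Src and MHCC97L, 0 of these 8 genes had an adjusted p under 0.05, against 2.13% of all genes tested. Of the 8, 4 had an unadjusted p under 0.05, against 29.5% of all genes. These 4, ABCC2, ABCC3, ABCC4 and ABCG2, were all lower in MHCC97L-Src by at least 1 on the log2 scale, and 18.9% of all genes met that rule in that direction. DESeq2's Wald test called 3 of the 8, ABCC2, ABCC3 and ABCG2, and it called 17.6% of all genes, far more than edgeR. Between MHCC97L-Oxa and MHCC97L, 0 of the 8 had an adjusted p under 0.05, against 0.953% of all genes, and 2, ABCC2 and ABCG2, had an unadjusted p under 0.05, against 22.4%, both lower by over 1 on the log2 scale, against 11.5%. DESeq2 called these 2 genes there, against 7.57% of all genes. Between MHCC97L-Src and MHCC97L-Oxa, 1 of the 8 was called, ABCC3, against 4.64% of all genes. It was also the 1 member with an unadjusted p under 0.05, against 19.5%, and lower by over 1 on the log2 scale, against 2.52%. Both comparisons with MHCC97L share its 3 libraries.

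**Figure D2:**
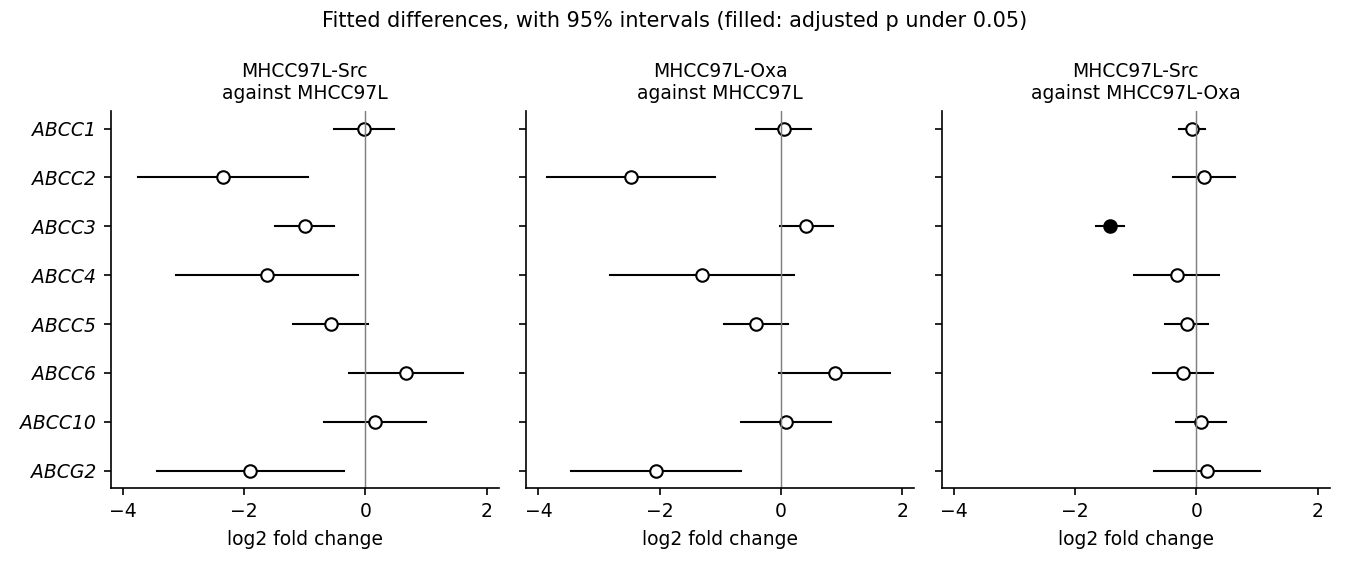
Fitted log2 fold change of 8 efflux transporter genes in the 3 comparisons (circles) with 95% intervals (lines), where filled circles mark an adjusted p under 0.05 in edgeR. ABCC3 between MHCC97L-Src and MHCC97L-Oxa, at -1.43, is the only filled circle, and the intervals of ABCC2, ABCC4 and ABCG2 against MHCC97L are the widest.

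ABCC3 (NCBI gene 8714, chromosome 17, 50634777 to 50692252, + strand) encodes MRP3, a basolateral exporter of glucuronides and bile acids, and it was the member that separated the resistant lines. Its counts were 4003, 4669 and 4779 in the parental line, 2147, 1977 and 2116 with saracatinib resistance and 5666, 6471 and 5962 with oxaliplatin resistance. The 3 groups did not overlap, with MHCC97L-Src lowest and MHCC97L-Oxa highest. In FPKM the levels were 33.1 ± 3.36 for MHCC97L, 15.4 ± 0.511 for MHCC97L-Src and 43.8 ± 3.09 for MHCC97L-Oxa (SD, n = 3). ABCC3 was 2.69-fold lower in MHCC97L-Src than in MHCC97L-Oxa (log2 fold change -1.43, SE 0.105, edgeR adjusted p = 5.88e-05). This difference was called under each of 18 alternatives in the processing, at log2 fold changes of -1.37 to -1.51.

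Against MHCC97L, the log2 fold change of ABCC3 was -1.0 in MHCC97L-Src (SE 0.22, 95% interval -1.49 to -0.51), with an edgeR adjusted p of 0.0542. It was -1.08 with an adjusted p of 0.00473 without MHCC97L replicate 1, -0.88 with an adjusted p of 0.0432 without MHCC97L replicate 2, and -1.19 with an adjusted p of 0.000997 after the GC and length offsets. Over the 18 alternatives the adjusted p ranged from 0.000997 to 0.231, and 10 of them gave a value under 0.05. In MHCC97L-Oxa the log2 fold change against MHCC97L was 0.42 (SE 0.19, 95% interval -0.02 to 0.86, edgeR adjusted p = 0.229), and without MHCC97L replicate 1 it was 0.40 with an adjusted p of 0.0186. That was the only one of its 18 alternatives with an adjusted p under 0.05.

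The ratio of ABCC3 to ABCC1, 2 genes of like GC content, was 1.43 to 1.56 in the MHCC97L libraries in FPKM. It was 0.710 to 0.779 in MHCC97L-Src and 1.80 to 2.07 in MHCC97L-Oxa, so the 3 lines did not overlap in this ratio either. Over the 9 libraries pooled, the deviation of ABCC3 from its mean had a Pearson's r of -0.23 with the GC trend of the library (n = 9, a description only). This value also holds the differences between the lines. In replicates 1 to 3 ABCC3 lay at -0.13, 0.34 and 0.25 in MHCC97L and at -0.76, -0.73 and -0.89 in MHCC97L-Src. In both lines that was the order of the libraries by GC trend, and in MHCC97L-Oxa, at 0.55, 0.73 and 0.64, it was not. Genes with a pattern in log2 CPM most like ABCC3 among 12232 genes were COL5A1 (r = 0.994) and COL7A1 (r = 0.990), which encode fibrillar and anchoring collagens, and PMEPA1 (r = 0.985), which encodes a membrane protein induced by TGF-β. COL5A1 reached a mean of 68.0 FPKM for MHCC97L, 28.7 for MHCC97L-Src and 97.8 for MHCC97L-Oxa. Markers of other cell types, too, were lowest on sum in MHCC97L-Src. Of 10 markers of blood, endothelial and stromal cells, 5 were above 3 counts in every library, and the summed level of all 10 was 16.1 to 32.3 FPKM for MHCC97L, 13.1 to 15.7 for MHCC97L-Src and 22.3 to 25.0 for MHCC97L-Oxa. The leucocyte gene PTPRC and the T cell gene CD3E had 0 counts throughout, COL1A1 reached 7.39 to 10.4 FPKM and DCN 1.28 to 17.8 FPKM, DCN was itself called lower in MHCC97L-Src than in MHCC97L-Oxa, CD14 was called higher in both resistant lines than in MHCC97L, and the part of these markers in the ABCC3 result was not tested.

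ABCC1 (NCBI gene 4363, chromosome 16, 15949577 to 16143074, + strand) encodes MRP1, which exports glutathione conjugates and anthracyclines, and its mean level lay between 20.6 and 22.8 FPKM in all 3 lines. Its counts were 3267, 4149 and 3848 in the parental line, 3456, 3207 and 3661 with saracatinib resistance and 3885, 3850 and 3988 with oxaliplatin resistance. The lowest count came from MHCC97L-Src and the highest from MHCC97L. In CPM both extremes came from MHCC97L, with 161.4 in replicate 1 and 243.6 in replicate 2. ABCC1 varied by only 2.50% in MHCC97L-Src and 3.02% in MHCC97L-Oxa (coefficient of variation of CPM). Its log2 fold change against MHCC97L was -0.02 in MHCC97L-Src (95% interval -0.52 to 0.47, adjusted p = 0.951 in edgeR) and 0.05 in MHCC97L-Oxa (95% interval -0.40 to 0.50, adjusted p = 0.885). Without MHCC97L replicate 1 these were -0.12 and 0.0117, and after the offsets -0.16 and -0.0231, with adjusted p-values of 0.375 or more. Between the resistant lines it was -0.08, with an interval of -0.29 to 0.14 and an adjusted p of 0.712, although the CPM ranges of these lines were apart.

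ABCC2 (NCBI gene 1244, chromosome 10, 99782640 to 99852594, + strand) encodes MRP2, the canalicular exporter of bilirubin glucuronide and of glutathione conjugates of platinum drugs, and it had the lowest fitted log2 fold changes of the 8 genes against MHCC97L. Counts were 3949, 598 and 1112 in the parental line, 373, 205 and 433 with saracatinib resistance and 294, 334 and 355 with oxaliplatin resistance. MHCC97L replicate 1 was far above all other libraries, and even its lowest companion, replicate 2, was above each of the 6 resistant libraries. The level was 9.45 ± 8.86 FPKM for MHCC97L, 1.79 ± 0.565 for MHCC97L-Src and 1.61 ± 0.108 for MHCC97L-Oxa (SD, n = 3). Its fitted log2 fold change was -2.34 in MHCC97L-Src (SE 0.62, 95% interval -3.74 to -0.94, edgeR adjusted p = 0.0892) and -2.47 in MHCC97L-Oxa (SE 0.60, 95% interval -3.86 to -1.08, edgeR adjusted p = 0.112).

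The size of the ABCC2 difference depended on MHCC97L replicate 1. Without this library, the log2 fold change was -1.25 with an adjusted p of 0.0596 in MHCC97L-Src, and -1.33 with an adjusted p of 0.0185 in MHCC97L-Oxa. Without MHCC97L replicate 2 it was -2.69 (adjusted p = 0.00232 in edgeR) and -2.79 (adjusted p = 0.0108). With the GC and length offsets it was -1.42 (edgeR adjusted p = 0.0296) and -1.66 (adjusted p = 0.0180). Leaving out MHCC97L replicate 3 or any single resistant library gave no call for ABCC2. The lowest edgeR adjusted p of these fits was 0.141 for MHCC97L-Src and 0.191 for MHCC97L-Oxa, and the highest were 0.224 and 0.424. The direction was the same under all 18 alternatives in both comparisons, with an adjusted p under 0.05 in 6 of them for MHCC97L-Src and in 5 for MHCC97L-Oxa. Between the resistant lines the log2 fold change of ABCC2 was 0.13 (95% interval -0.38 to 0.63, edgeR adjusted p = 0.807).

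ABCG2 (NCBI gene 9429, chromosome 4, 88090264 to 88231322, - strand) encodes BCRP, which exports topoisomerase inhibitors and urate. It gave 378, 70 and 136 counts in the parental line, 29, 32 and 83 with saracatinib resistance and 40, 41 and 54 with oxaliplatin resistance. MHCC97L replicate 1 was again the highest, MHCC97L-Src replicate 3 reached into the MHCC97L range in CPM, and the MHCC97L-Oxa libraries lay below it. Its fitted log2 fold change was -1.90 in MHCC97L-Src (SE 0.68, edgeR adjusted p = 0.126) and -2.06 in MHCC97L-Oxa (SE 0.61, edgeR adjusted p = 0.165). Without MHCC97L replicate 1 these became -1.01 with an adjusted p of 0.290 and -1.13 with an adjusted p of 0.0876. Without MHCC97L replicate 2 they became -2.21 with an adjusted p of 0.0119 and -2.36 with an adjusted p of 0.0137. After the GC and length offsets they were -0.70 with an adjusted p of 0.217, and -1.08 with an adjusted p of 0.0224. With MHCC97L replicate 3 or any single resistant library left out, ABCG2 was not called. The edgeR adjusted p was then at least 0.153 for MHCC97L-Src and 0.223 for MHCC97L-Oxa, and at most 0.325 and 0.474. Of the 18 alternatives, 2 had an adjusted p under 0.05 for MHCC97L-Src and 3 for MHCC97L-Oxa.

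ABCC4 (NCBI gene 10257, chromosome 13, 95019829 to 95301475, - strand) encodes MRP4, an exporter of cyclic nucleotides, prostaglandins and bile acids. With 301, 46 and 90 counts in the parental line, 46, 30 and 52 with saracatinib resistance and 41, 56 and 74 with oxaliplatin resistance, the lines overlapped in both comparisons with MHCC97L. Its fitted log2 fold change was -1.62 in MHCC97L-Src (SE 0.66, edgeR adjusted p = 0.151) and -1.30 in MHCC97L-Oxa (SE 0.66, edgeR adjusted p = 0.259). Leaving out MHCC97L replicate 1 moved it to -0.57 and -0.19, with adjusted p-values of 0.489 and 0.782, and leaving out MHCC97L replicate 2 to -1.97 and -1.62, with adjusted p-values of 0.0157 and 0.0519. The GC and length offsets gave -0.48 and -0.35. Of the 18 alternatives, only 1 had an adjusted p under 0.05 for MHCC97L-Src, that without MHCC97L replicate 2, and 0 had for MHCC97L-Oxa.

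ABCC2, ABCG2 and ABCC4 are the 3 detected members with the lowest GC content, and they shared their highest library, MHCC97L replicate 1, with ABCC5, which comes next in GC content. In MHCC97L replicate 1 ABCC2, ABCG2 and ABCC4 lay 2.71, 2.27 and 2.03 above their own means on the log2 CPM scale and ABCC5 lay 0.48 above, while ABCC6 lay 1.00 below its mean. Across the 9 libraries, their deviations followed the GC trend of the library with a Pearson's r of -0.92, -0.94 and -0.95 (n = 9), against -0.78 for ABCC5, 0.70 for ABCC1, 0.73 for ABCC6 and 0.57 for ABCC10. These libraries enter both sides of that relation, and it is given as a description. The ratio of ABCC2 to ABCG2 in CPM was 8.18 to 10.4 for MHCC97L, 5.22 to 12.9 for MHCC97L-Src and 6.57 to 8.15 for MHCC97L-Oxa. The range of MHCC97L-Src covered those of both other lines. PIEZO2 (r = 0.995), ZFHX4 (r = 0.988) and SYNCRIP (r = 0.988) had the patterns most like ABCC2 over the 9 libraries.

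**Figure D3:**
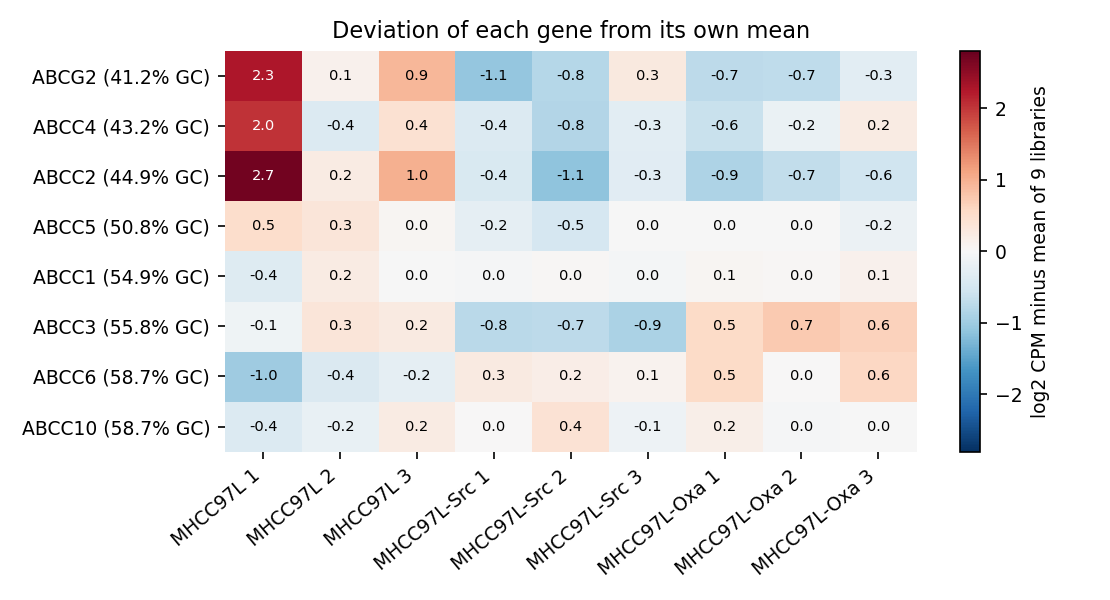
Deviation of each gene from its own mean over the 9 libraries in log2 CPM (colour and printed value), with genes ordered from low to high GC content of the transcript. The 3 genes of lowest GC content are highest in MHCC97L replicate 1, at 2.0 to 2.7, and ABCC3 is low in all MHCC97L-Src and high in all MHCC97L-Oxa libraries.

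The same order was seen over all genes tested. Genes under 45% GC had a median log2 fold change of -1.29 in MHCC97L-Src and -1.05 in MHCC97L-Oxa, those at 55% or more had 0.35 and 0.20, and the medians of all genes were -0.16 and -0.19. Against this, ABCC2 and ABCG2 lay below the median of their GC class in both lines, ABCG2 with -1.90 and -2.06, and ABCC4 lay closer to that median, with -1.62 and -1.30. ABCC3 in MHCC97L-Src, at -1.0, was of the opposite sign to the median of its class. Beyond these values and the offsets, the part of base composition in the results for ABCC2, ABCC4 and ABCG2 was not tested.

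**Figure D4:**
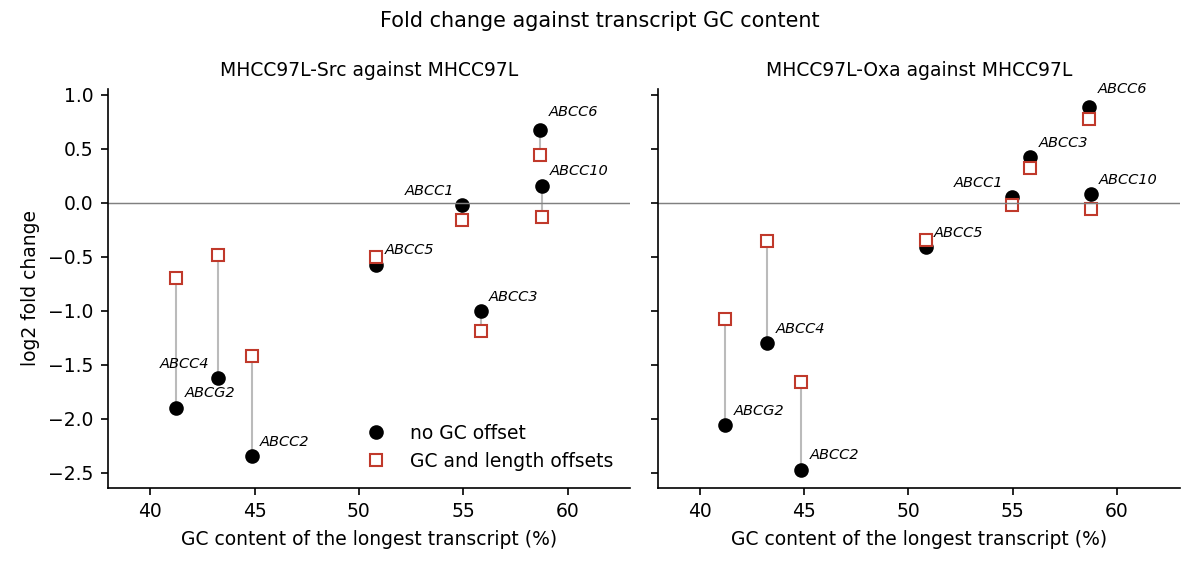
Log2 fold change of 8 genes against MHCC97L by GC content of the longest transcript, without offsets (circles) and with offsets for GC content and gene length (squares). The offsets moved ABCC2, ABCC4 and ABCG2 towards 0, ABCC2 to -1.42 and -1.66, and left ABCC3 at -1.19 in MHCC97L-Src and 0.32 in MHCC97L-Oxa.

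ABCC5 (NCBI gene 10057, chromosome 3, 183919934 to 184018015, - strand) encodes MRP5, which exports cyclic nucleotides and nucleotide analogues. Its counts were 1167, 887 and 793 in the parental line, 586, 450 and 745 with saracatinib resistance and 735, 742 and 653 with oxaliplatin resistance. In CPM each MHCC97L library was above each resistant library, by a narrow margin. Its fitted log2 fold change was -0.57 in MHCC97L-Src (95% interval -1.20 to 0.05, edgeR adjusted p = 0.196) and -0.41 in MHCC97L-Oxa (95% interval -0.94 to 0.12, edgeR adjusted p = 0.286). Without MHCC97L replicate 1 these were -0.41 and -0.20, with adjusted p-values of 0.311 and 0.260, and after the offsets -0.50 and -0.34, with adjusted p-values of 0.0656 and 0.0989. Neither passed the threshold under any of the 18 alternatives.

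ABCC6 (NCBI gene 368, chromosome 16, 16148928 to 16223522, - strand) encodes MRP6, a liver transporter whose loss causes ectopic mineralisation. It was counted 57, 73 and 90 times in the parental line, 116, 99 and 111 with saracatinib resistance and 151, 105 and 152 with oxaliplatin resistance. All resistant libraries were above all MHCC97L libraries in CPM, but not in FPKM, where MHCC97L reached 0.698, MHCC97L-Src began at 0.639 and MHCC97L-Oxa at 0.650. Its fitted log2 fold change was 0.67 in MHCC97L-Src (95% interval -0.28 to 1.62, edgeR adjusted p = 0.295) and 0.89 in MHCC97L-Oxa (95% interval -0.03 to 1.80, edgeR adjusted p = 0.229). Without MHCC97L replicate 1 these were 0.52 and 0.79, after the offsets 0.44 and 0.77, and by limma on log2(FPKM + 1), which shrinks low genes, 0.16 and 0.25, none with an adjusted p under 0.05. ABCC6 has near-identical pseudogene copies, ABCC6P1 and ABCC6P2, without rows of their own in the count table, so its counts are uncertain.

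ABCC10 (NCBI gene 89845, chromosome 6, 43427366 to 43450430, + strand) encodes MRP7, which exports taxanes. It had 242, 230 and 338 counts in the parental line, 263, 310 and 257 with saracatinib resistance and 311, 273 and 273 with oxaliplatin resistance, and the lines overlapped throughout. Its fitted log2 fold change was 0.16 in MHCC97L-Src (95% interval -0.68 to 0.99, edgeR adjusted p = 0.785) and 0.08 in MHCC97L-Oxa (95% interval -0.66 to 0.82, edgeR adjusted p = 0.887). Without MHCC97L replicate 1 they were 0.0860 and 0.0589, and after the GC and length offsets both turned in sign, to -0.13 and -0.06. Its exons overlap those of DLK2 on the opposite strand, and whether the counting used the strand is not given in the sources used here.

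Across the 8 genes, the CPM ranges of MHCC97L-Src and MHCC97L did not overlap for 1 higher gene, ABCC6, against 18.7% of all genes, and for 3 lower genes, ABCC2, ABCC3 and ABCC5, against 11.2%. Between MHCC97L-Oxa and MHCC97L, ABCC3 and ABCC6 were higher without overlap, against 19.6% of all genes, and ABCC2, ABCC5 and ABCG2 lower, against 8.42%. For MHCC97L-Src and MHCC97L-Oxa only ABCC1 and ABCC3 were apart, both lower in MHCC97L-Src, against 13.1% of all genes in that direction. The median log2 fold change of the 8 genes was -0.79, -0.18 and -0.12 in the 3 comparisons, and that of all genes -0.16, -0.19 and -0.02.

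Other ABC genes were read as a list of 39, of which 16 were at or under 3 counts in every library, among them CFTR and ABCB4 at 0. Of 20 tested between MHCC97L-Src and MHCC97L, 2 were called and both rose, against 2.13% of all genes called. Of 21 between MHCC97L-Oxa and MHCC97L, 1 was called and rose, against 0.953%. At an unadjusted p under 0.05 and over 1 on the log2 scale, 2 were higher and 4 lower in each of these comparisons with MHCC97L. Of the 12037 and 12064 genes tested, 2966 and 1951 passed that rule. Of those, 2275 and 1393 were lower, which is 18.9% and 11.5% of all genes, and the others were higher. With the GC and length offsets, 3 were called higher and 2 lower in MHCC97L-Src, and 3 higher and 6 lower in MHCC97L-Oxa. The offsets gave 1279 and 1555 calls over all genes. ABCA3, a lipid transporter of lamellar bodies, had 429, 623 and 579 counts in the parental line, 1277, 1383 and 1311 with saracatinib resistance and 1529, 1448 and 1386 with oxaliplatin resistance. Both resistant lines were above MHCC97L without overlap. It rose 2.62-fold in MHCC97L-Src (edgeR adjusted p = 0.0467), and in MHCC97L-Oxa the fold was 2.65 with an adjusted p of 0.0503, which was 0.00110 without MHCC97L replicate 1. The cholesterol exporter ABCG1 rose 23.8-fold and 21.9-fold (edgeR adjusted p = 0.00597 and 0.00898). ABCB9, a lysosomal peptide transporter, was 1.66-fold higher in MHCC97L-Src than in MHCC97L-Oxa (edgeR adjusted p = 0.0208). It was the only call of the 21 genes tested there, against 4.64% of all genes.

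Drug uptake carriers and the enzymes that make glutathione conjugates act before efflux. Of 16 carriers, 7 were tested. Relative to MHCC97L, 1 rose and 1 fell in MHCC97L-Src, against 2.13% of all genes called. None was called in MHCC97L-Oxa, against 0.953%. There edgeR gave 3 carriers, SLCO4A1, SLC22A3 and SLC22A5, an unadjusted p under 0.05, against 22.4% of all genes. Without MHCC97L replicate 1, SLCO4A1 and SLC22A5 were called there (edgeR adjusted p = 0.00293 and 0.0201). That fit called 2251 of all genes, against 115 with the replicate kept. SLCO4A1, an organic anion and thyroid hormone carrier, had 613, 920 and 962 counts in the parental line, 2268, 2399 and 2218 with saracatinib resistance and 1488, 1533 and 1505 with oxaliplatin resistance. The lines did not overlap, and SLCO4A1 rose 2.97-fold in MHCC97L-Src against MHCC97L (edgeR adjusted p = 0.030) and 1.65-fold against MHCC97L-Oxa (adjusted p = 0.00819). The carnitine carrier SLC22A5, with 1479, 1544 and 1303 counts in the parental line, 512, 356 and 613 with saracatinib resistance and 982, 804 and 831 with oxaliplatin resistance, went the other way. It fell 2.74-fold in MHCC97L-Src against MHCC97L (edgeR adjusted p = 0.0327), a difference with an adjusted p of 0.0678 after the GC and length offsets, and 1.66-fold against MHCC97L-Oxa (adjusted p = 0.0428). Its neighbour in the family, SLC22A4, was 2.23-fold lower in MHCC97L-Src than in MHCC97L-Oxa (edgeR adjusted p = 0.0116). SLCO4A1, SLC22A5 and SLC22A4 were the calls among the 7 carriers tested between the resistant lines, against 4.64% of all genes. Of 13 glutathione genes tested, MGST2 alone was called, between the resistant lines, against 4.64% of all genes. It was 1.42-fold higher in MHCC97L-Src there (edgeR adjusted p = 0.0473). Against MHCC97L, 0 were called in MHCC97L-Src and in MHCC97L-Oxa, against 2.13% and 0.953% of all genes. At an unadjusted p under 0.05 and over 1 on the log2 scale, 3 and 2 were lower, against 18.9% and 11.5%.

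Of the 16 regulators of transporter genes, 11 were tested. In edgeR 0 were called against MHCC97L in either line, against 2.13% of all genes for MHCC97L-Src and 0.953% for MHCC97L-Oxa. The unadjusted p was under 0.05 for 2 in MHCC97L-Src, HIF1A and NFE2L2, against 29.5% of all genes. In MHCC97L-Oxa this held for 1, HIF1A, against 22.4%. HIF1A and NFE2L2, which encode the hypoxia factor and the antioxidant factor NRF2, fell 2.25-fold and 1.60-fold in MHCC97L-Src relative to MHCC97L-Oxa (edgeR adjusted p = 0.0235 and 0.0392). These were the only calls of the 11 regulators tested there, against 4.64% of all genes. After the GC and length offsets the differences of HIF1A and NFE2L2 had an adjusted p of 0.0537 and 0.114. Among 8 genes that anchor transporters in the membrane, the caveolin CAV1 fell 1.87-fold and the moesin gene MSN 1.52-fold in MHCC97L-Src relative to MHCC97L-Oxa (edgeR adjusted p = 0.0298 and 0.0346). SLC9A3R1, the scaffold NHERF1, was 1.51-fold higher there (edgeR adjusted p = 0.0455). These calls came from 7 genes tested there, against 4.64% of all genes called. With the GC and length offsets, 5 of the list were called lower in MHCC97L-Src against MHCC97L, with CAV1 and MSN among them (edgeR adjusted p = 0.0140 and 0.0221). In MHCC97L-Oxa the offsets gave 2 lower and 1 higher. Over all genes they gave 1279 and 1555 calls in the 2 comparisons. PDZK1, a scaffold that binds ABCC2, had 51, 15 and 26 counts in MHCC97L and at most 2 in any resistant library. Its MHCC97L mean of 1.60 CPM was 8.85-fold the floor of 3 counts per library in MHCC97L-Src and 9.53-fold that in MHCC97L-Oxa. These folds rest on the mean, and the MHCC97L libraries had 2.52, 0.881 and 1.40 CPM. Against MHCC97L, edgeR called PDZK1 alone of the 8 genes, lower in both lines (adjusted p = 0.0195 and 0.0428), against 2.13% and 0.953% of all genes. Without MHCC97L replicate 1 the edgeR adjusted p was 0.01175 and 0.0182.

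RefSeq promoters (GRCh38.p14, 250 bases before to 50 after a transcript start) were matched for 7 of the 9 genes, with 14 starts in all. They were not matched for ABCC1 and ABCC3. Their GC content ranged from 37.7% for a start of ABCB1 to 79.7% for ABCC4, against a median of 58.7% over 35116 promoters. The letters TGACNNNGC, the core of NRF2 elements, were found on either strand in 3 of the 14, at ABCC4, ABCC10 and ABCG2, against 13.3% of all promoters. The AP-1 letters TGANTCA were found in 1, at ABCB1, against 7.71%, and the GC box GGGCGG in 4, at ABCC5, ABCC10 and ABCG2, against 45%. The starts of a gene can overlap, and a match of letters is no evidence of binding.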

How the data were processed

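The authors deposited raw read counts per gene and FPKM values per gene for the 9 libraries. Per the labels, RNA was poly(A) selected and prepared with a stranded kit. The submitters' processing notes name Trimmomatic 0.36, HISAT2 2.2.1.0 and the build GRCh38.p12. The counting program is not given in the sources used here.

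Counts of the 6 libraries of a comparison were filtered by filterByExpr (minimum count 10), normalised by TMM and tested by edgeR 4.0.16 (glmQLFit and glmQLFTest, R 4.3.3) with Benjamini-Hochberg adjustment. Standard errors and intervals were derived from the F statistic of each gene. CPM values used TMM factors over all 9 libraries, and log2 CPM a prior count of 2. GC content and length were those of the longest GENCODE release 29 transcript, matched by RefSeq accession for 13518 genes and by symbol for 5825, and offsets were splines with 5 degrees of freedom each. From each fixed list the text names genes with an adjusted p under 0.05 in any comparison, or, where more than 4 or none passed, the 4 of smallest p. For the 2 members of smallest p it names the 3 genes of highest Pearson's r in log2 CPM. The members and lists were chosen with earlier results of these data known. SLC22A3, DCN, CD14 and the other marker genes were named outside this rule, after their values were seen. No protein sequences were used, so protein identity was not computed. Alternatives were DESeq2 1.42.0, limma-trend (limma 3.58.1) on log2(FPKM + 1) and log2(FPKM + 0.1), other normalisations and filters, a replicate block, all 9 libraries in 1 fit, and leaving out each library. Scripts were tested on simulated counts.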

Additional observations from a re-analysis of the deposited data

Results flagged for a closer look

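ABCC3 differed between the resistant lines by a direct test, at -1.43 on the log2 scale for MHCC97L-Src relative to MHCC97L-Oxa (edgeR adjusted p = 5.88e-05). Against MHCC97L, its log2 fold changes of -1.0 and 0.42 had opposite signs, and all 3 MHCC97L-Src libraries lay below and all 3 MHCC97L-Oxa libraries above the MHCC97L libraries in CPM. Both of these values rest on the same MHCC97L libraries.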

How the results depend on the processing

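Of 432 log2 fold changes of single members under 18 alternatives in each comparison, 389 kept their direction and their side of the threshold, 28 kept their direction and passed it, and 15 turned in sign, all 15 for genes whose intervals spanned 0. For ABCC1, MHCC97L-Src against MHCC97L turned to 0.0686 under DESeq2 and under RLE size factors, and with 1 library left out ranged from -0.12 to 0.15, while MHCC97L-Oxa against MHCC97L turned to -0.0231 with the GC and length offsets and to -0.0191 with the replicate block added. For ABCC10, the offsets gave -0.13 and -0.0597 for MHCC97L-Src and MHCC97L-Oxa against MHCC97L and -0.0611 between the resistant lines, and with the replicate block added -0.12, -0.0528 and -0.0606. Between the resistant lines, leaving out 1 library gave -0.03 to 0.33 for ABCC2, -0.10 to 0.19 for ABCC10 and -0.38 to 0.42 for ABCG2. The number of members called between MHCC97L-Src and MHCC97L, 0 in the edgeR fit, was 3 under DESeq2, 2 with the offsets or with all 9 libraries in 1 fit, and 1 with total counts, no filter, the replicate block, the offsets with the block, or limma on FPKM with either pseudocount or without a filter. It ranged from 0 to 4 with 1 library left out, with 1 without MHCC97L replicate 1 and 4 without MHCC97L replicate 2. The number past the unadjusted rule, 4, was 3 under DESeq2, with RLE size factors, with no filter or with limma on log2(FPKM + 0.1). It was 2 with the block, the offsets, both, or limma on log2(FPKM + 1) with or without a filter. With 1 library left out it was 1 to 3. It was 1, ABCC2, without MHCC97L-Src replicate 1 or 2. Over all genes, 2966 passed this rule in the edgeR fit, 3205 under DESeq2, 3036 with RLE size factors and 3612 with no filter. Limma on log2(FPKM + 0.1) gave 1515, the block 2600, the offsets 1304 and both 1255. Limma on log2(FPKM + 1) gave 657 with and 535 without a filter, and leaving out 1 library 1615 to 4387. Between MHCC97L-Oxa and MHCC97L, 0 members were called in the edgeR fit, 2 under DESeq2 and with the offsets, and 1 with all 9 libraries. The number called was 0 to 2 with 1 library left out, with 2 without MHCC97L replicate 1 or 2. The 2 members past the unadjusted rule became 1 with limma on log2(FPKM + 1), filtered or not, and 3 without MHCC97L replicate 2. Over all genes, 1951 passed it in the edgeR fit, 344 and 323 with limma, filtered and not, and 3902 without MHCC97L replicate 2. The number of all genes called moved too. Between MHCC97L-Src and MHCC97L it was 256 in the edgeR fit, 2114 under DESeq2, 1279 with the offsets, 1956 with all 9 libraries and 988 with the replicate block, and 672, 3419 and 22 without MHCC97L replicate 1, 2 or 3. Between MHCC97L-Oxa and MHCC97L it was 115, 895 under DESeq2, 1555 with the offsets, 495 with all 9 libraries, 2251 and 2705 without MHCC97L replicate 1 or 2, and 2 when any other single library was left out. The cause of these moves was not tested. ABCC3 alone was called between the resistant lines under all 18. Same-numbered libraries did not deviate together (r of -0.65 to 0.44), so the numbers were not taken as pairs. With the replicate block, ABCC2 was called between MHCC97L-Src and MHCC97L (log2 fold change -1.98, edgeR adjusted p = 0.000459). Against MHCC97L, the SE was 0.66 in both lines for ABCC4, 0.68 and 0.61 for ABCG2 and 0.62 and 0.60 for ABCC2. At 29 to 83 counts in the resistant libraries, the SE between these lines was 0.31 for ABCC4 and 0.39 for ABCG2. For ABCC2 it was 0.23. In MHCC97L the coefficient of variation of CPM was 87.0% for ABCC4, 76.3% for ABCG2 and 89.1% for ABCC2. What set the width of the intervals was not tested.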
